A study of Homo sapiens with 4 samples.

Results

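The genes described are those of the cytosolic ribosomal proteins and of their near copies, in the myeloma cell line KMS11. They were chosen by symbol alone: RPL or RPS with a number and, where present, a suffix A, X, L, AL or L1, together with RPLP0, RPLP1, RPLP2 and RPSA, on chromosomes 1 to 22 and X. The rule found 85 of the 62069 genes in the deposited tables, of which 77 were core genes and 8 were paralogs whose symbol ends in L or L1. The core genes were 46 of the large 60S subunit and 31 of the small 40S subunit. The other 5 entries with a matching symbol, copies of RPS18 on alternative sequences outside those chromosomes, held 0 fragments and were left out. FAU, which encodes a ribosomal protein fused to a ubiquitin-like one, does not carry such a symbol and is given apart.

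Messenger RNA was sequenced in 4 libraries of KMS11, an established cell line derived from multiple myeloma, a tumour of plasma cells. The line carries the t(4;14) translocation. In 2 libraries the cells had received an shRNA against NSD2, a histone methyltransferase gene activated by that translocation, and in 2 a control shRNA. Both groups were infected by lentivirus with polybrene at 10 µg/mL, had their medium changed after 24 h, and were collected at 96 h. All 4 libraries come from 1 cell line. Both knockdown libraries bear the same construct name, shM2. The labels do not say outright whether that is 1 hairpin, or whether the libraries within a group were separate cultures. Every p-value therefore reflects the spread among these 4 samples alone, and that spread may be technical.

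Each ribosome is built from ribosomal RNA and 1 copy of most ribosomal proteins, the P stalk proteins RPLP1 and RPLP2 being known exceptions. The proteins fold and hold the RNA, line the tunnel by which the new chain leaves, and form the sites where messenger RNA, factors and assembly proteins bind. The messages of these proteins typically begin with a C followed by an unbroken run of pyrimidines, the 5′ terminal oligopyrimidine or TOP tract, by which mTOR signalling and the protein LARP1 control their translation together. Paralogs arose mostly by retrotransposition or gene duplication, and several are known for narrow use: RPL3L in heart and skeletal muscle, and RPL10L in testis. Plasma cells secrete antibody and depend on a large translation machinery.

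The annotated transcription starts of the members show which of them carry the TOP tract at the sequence level, and they are printed first for the genes to which the later values return. RefSeq promoter windows on GRCh38.p14 were present for 62 of the 77 core genes and 6 of the 8 paralogs. A tract was counted where the annotated start base is C and at least 5 pyrimidines run on from it, the start base included. It was found in 46 of the 62 core genes (74.2%), in 1 of the 6 paralogs (16.7%), and in 1404 of all 27305 genes of the promoter table (5.14%). Each line gives 20 bases before and 20 bases from the annotated start, 5′ to 3′ on the strand of the gene, and the capitals mark the tract where there is one. The first 8 lines pair a core gene with its paralog. RPL22 is at chr1:6199576-6199615 (minus strand) and RPL22L1 at chr3:170870176-170870215 (minus). RPL26 is at chr17:8383174-8383213 (minus) and RPL26L1 at chr5:172958709-172958748 (plus). RPS27 is at chr1:153990742-153990781 (plus) and RPS27L at chr15:63157458-63157497 (minus). RPL36A is at chrX:101390991-101391030 (plus) and RPL36AL at chr14:49620607-49620646 (minus). The last 4 lines are the core genes with the highest level per length, the highest and the lowest fold change, and RPS26, a core gene of high fold change without a tract at this start. RPS12 is at chr6:132814549-132814588 (plus), RPS27A at chr2:55232668-55232707 (plus), RPL4 at chr15:66504836-66504875 (minus) and RPS26 at chr12:56041898-56041937 (plus).
RPL22: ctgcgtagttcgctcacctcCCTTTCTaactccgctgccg
RPL22L1: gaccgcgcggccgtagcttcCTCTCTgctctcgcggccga
RPL26: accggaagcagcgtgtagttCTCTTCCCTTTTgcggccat
RPL26L1: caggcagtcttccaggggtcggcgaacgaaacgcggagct
RPS27: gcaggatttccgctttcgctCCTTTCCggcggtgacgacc
RPS27L: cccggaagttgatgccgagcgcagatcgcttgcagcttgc
RPL36A: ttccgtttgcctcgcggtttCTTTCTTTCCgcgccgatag
RPL36AL: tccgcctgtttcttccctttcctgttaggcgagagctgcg
RPS12: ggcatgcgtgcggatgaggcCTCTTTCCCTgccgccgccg
RPS27A: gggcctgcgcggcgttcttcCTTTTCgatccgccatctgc
RPL4: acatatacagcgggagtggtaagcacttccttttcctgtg
RPS26: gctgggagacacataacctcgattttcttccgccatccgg

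In 3 of these 4 pairs the core gene had a tract and its paralog had none at the annotated start. RPL22L1, the exception, kept a tract of 6 pyrimidines beside the 7 of RPL22. In RPL36AL the annotated start falls late in a longer pyrimidine run, so its count rests on the exact base annotated. In RPL4 and RPS26 pyrimidine runs lie some bases downstream of the annotated start, where the count does not take them. A tract was also found in 13 of the 14 listed translation factors and other TOP genes that had a window (92.9%). These were listed for their known TOP messages, so their share is no independent comparison. Among genes of mitochondrial ribosomal proteins 5 of 67 had a tract (7.46%). Other motifs were searched on both strands of the window of 300 bases, from 250 before to 50 after the start. None of the 4 motifs contains another. CCGGAAG, the core of ETS family sites, was in 35.5% of core windows and 12.2% of all windows. ATGGCGG was in 22.6% of core windows against 6.66% of all. Windows of mitochondrial ribosomal proteins held CCGGAAG in 43.3% and ATGGCGG in 35.8%, and those of the TOP genes in 21.4% and 42.9%. The E-box CACGTG was in 6.45% of core windows against 8.77% of all, and TATAAA in 8.06% against 14.0%. These matches describe the sequence windows and were not tied to binding of any factor.

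The core genes were among the most deeply read in the libraries, but their levels per length were far from equal. Levels between genes are in CPM, the counts of fragments after scaling for library depth, per kb of the deposited exonic length, the union of all annotated exons of a gene. The median core gene stood at 191 CPM per kb over the 4 libraries, the 10th percentile at 74.5 and the 90th at 617, which is 8.27-fold apart. Above 10 CPM per kb stood 74 of the 77 core genes, and RPL36A and RPL17 were among those below.

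RPS12, a 40S protein, had the highest level, at 1054 and 1211 CPM per kb in the libraries labelled NSD2 knockdown and 994 and 1002 CPM per kb in the control libraries. RPS27, a zinc-binding 40S protein, stood at 831 and 978 CPM per kb in the knockdown libraries and 931 and 894 CPM per kb in the controls. RPS12 was above RPS27 in all 4 libraries. RPL7A, a 60S protein, followed with 786 and 847 CPM per kb in the knockdown libraries and 806 and 782 CPM per kb in the controls. RPL13A, a 60S protein also known as a translational silencer, stood at 776 and 853 CPM per kb in the knockdown libraries and 796 and 750 CPM per kb in the controls. RPL7A was above RPL13A in 3 of the 4 libraries.

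At the low end, RPL36A, a 60S protein, had 2.58 and 3.37 CPM per kb in the knockdown libraries against 2.52 and 2.61 CPM per kb in the controls. RPL17, which sits near the exit of the 60S tunnel, had 4.69 and 5.37 CPM per kb in the knockdown libraries and 5.07 and 4.98 CPM per kb in the controls. The values of RPL36A and RPL17 did not overlap. RPS15A followed at 30.7 and 33.2 CPM per kb in the knockdown libraries and 32.9 and 31.2 in the controls, and RPL26 at 48.8 and 53.8 in the knockdown libraries and 51.0 and 51.8 in the controls.

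The low levels stood beside features of the annotation that can take fragments away from a gene in this kind of count. RPL17 shared 43.1% of its exonic bases with other genes, among them the read-through gene RPL17-C18orf32, which itself held 0 and 1 fragment in the knockdown libraries and 0 and 1 in the controls. RPL36A shared 8.48% of its deposited 3927 bp, a length far above the 429 bp of its principal transcript. How much of that transcript was shared was not measured. The read-through partner RPL36A-HNRNPH2 held 0 fragments in every library. Whether fragments that fit more than 1 place were lost from these genes was not tested, so their levels are uncertain. Of all core genes, 30 shared no exonic base with another gene and 16 shared over 10%.

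The files also hold 1098 pseudogenes named after core genes, which together carried 0.459% of the number of fragments of the core genes. Only for RPL17 (9.67%) and RPS2 (8.86%) did the pseudogenes named after the gene exceed 5% of its own fragments. The order of levels depended on the length used. With the length of the principal GENCODE 29 transcript, chosen after the data were seen, RPS27 was highest and RPS12 fell to rank 19, while RPL17 and RPL36A were still among the lowest. The Spearman correlation between the 2 sets of levels was 0.842 across the 77 core genes, which share their fragment counts. The median length was 2931 bp deposited and 835 bp for the principal transcript.

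**Figure D1:**
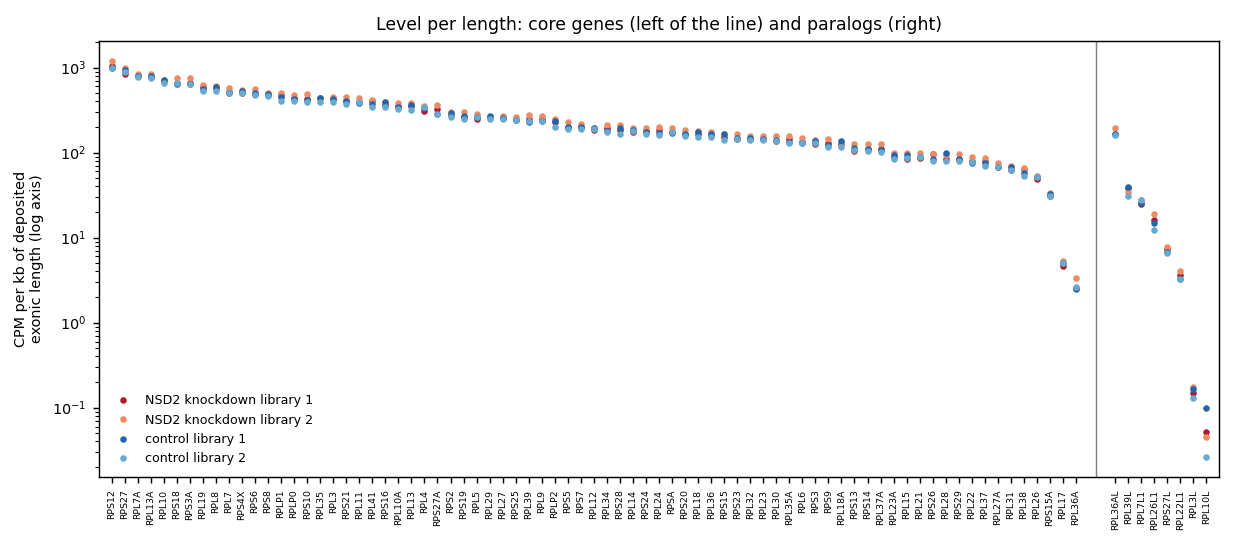
Level of each member in each library, in CPM per kb of deposited exonic length on a log axis, with core genes ordered by mean level on the left and paralogs on the right of the line; points are libraries. Most core genes lie between about the 10th percentile of 74.5 and the highest mean of 1065 CPM per kb, and RPL17 and RPL36A lie apart at the low end. Of the 77 core genes 2 are not drawn.

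In KMS11 most paralogs were expressed far below the core gene from which they take their name. RPL26L1 came nearest among those below, 3.33-fold under RPL26 per length on average (8.57-fold with principal transcript lengths), and RPL36AL alone stood above its counterpart. For each pair the ratio of fragments per kb of paralog to counterpart was taken within each library, with 0.5 fragments added to both, so that library depth cancels. The fold values are descriptions of levels, and the differences between groups are given after them.

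RPL36AL, a copy encoding nearly the same protein as RPL36A, had log2 ratios of 5.998 and 5.84 in the knockdown libraries and 6.05 and 5.93 in the controls, a mean of 61.9-fold above RPL36A. With principal transcript lengths the mean was 6.77-fold, so the size of this ratio rests largely on the length of 3927 bp deposited for RPL36A against 429 bp for its principal transcript. Both fold values carry the uncertain level of RPL36A described above. In CPM, RPL36AL stood at 123 and 144 in the knockdown libraries and 124 and 119 in the controls, and RPL36A at 10.1 and 13.2 in the knockdown libraries and 9.89 and 10.2 in the controls. The start of RPL36A printed above carries a tract of 10 pyrimidines, and the annotated start of RPL36AL a run of only 3, which continues an unbroken run of pyrimidines just upstream.

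RPL39L, a paralog of the small tunnel protein RPL39 known from testis and tumour lines, was 6.90-fold below RPL39 on average. Its CPM values were 40.9 and 36.8 in the knockdown libraries and 42.0 and 32.6 in the controls. RPL7L1, related to an assembly factor of the yeast large subunit, was 19.99-fold below RPL7 per length, at 191 and 210 CPM in the knockdown libraries and 198 and 211 CPM in the controls. RPL22L1, a duplicate of the RNA-binding 60S protein RPL22, was 22.6-fold below RPL22. RPS27L, known as a p53 target, was 128-fold below RPS27 per length. In CPM, RPS27L stood at 29.7 and 31.1 in the knockdown libraries and 27.4 and 26.5 in the controls. RPS27 stood at 786 and 925 in the knockdown libraries and 881 and 846 in the controls. For all 4 of these paralogs, fold values with principal transcript lengths were larger, at 26.0, 28.4, 50.2 and 537 in the order given. The sizes for RPS27L rest partly on length, with 4037 bp deposited against 946 bp for RPS27, and 6434 bp against 359 bp for the principal transcripts.

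The tissue-restricted copies were barely read. RPL3L held 20 and 26 fragments in the knockdown libraries and 23 and 17 in the controls, which put it 2705-fold below RPL3 per length. RPL10L held 2 and 2 fragments in the knockdown libraries and 4 and 1 in the controls, failed the filter on low counts, and is given no fold. X-linked RPL10 itself held between 151914 and 188279 fragments per library.

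Between the groups, the knockdown libraries lay above both controls in the ratio of RPL26L1 to RPL26, at log2 ratios of -1.60 and -1.52 against -1.77 and -2.06. The difference of group means was 0.36 log2 units, with 0.21 when control library 2 was left out and 0.51 when control library 1 was. RPL22L1 to RPL22 had ratios of -4.44 and -4.46 in the knockdown libraries against -4.53 and -4.57 in the controls, a difference of 0.10. RPS27L to RPS27 had ratios of -6.82 and -6.99 in the knockdown libraries against -7.10 and -7.09 in the controls, a difference of 0.19, which was 0.11 without knockdown library 1. RPL7L1 to RPL7 ran the other way, with -4.37 and -4.41 in the knockdown libraries against -4.29 and -4.20 in the controls. In a two-sided exact permutation test these 4 pairs gave p = 0.333, the smallest value that 2 libraries against 2 allow, and the other 4 pairs gave 0.667 or 1.0. No ratio could therefore reach the threshold of 0.05, and adjustment over the 8 pairs can only raise these values.

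**Figure D2:**
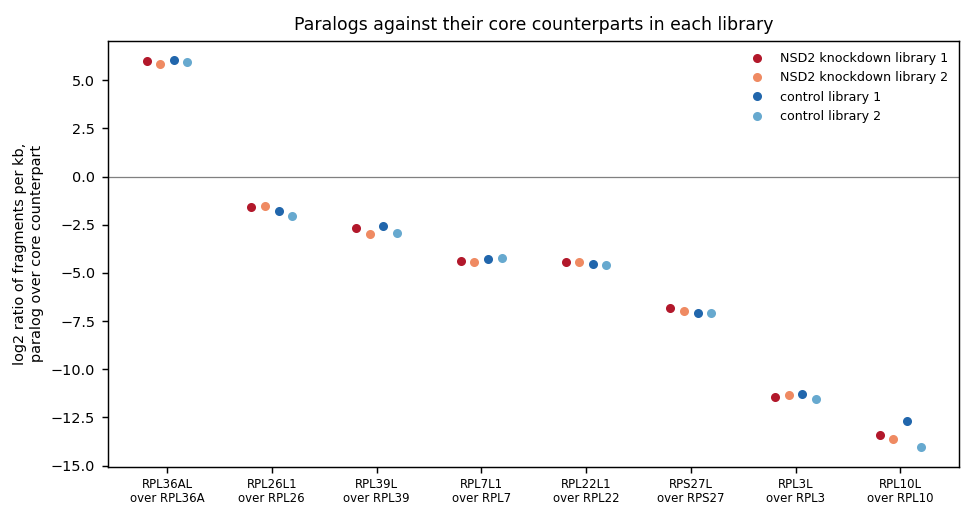
Log2 ratio of fragments per kb of each paralog to its core counterpart, with 1 point per library and the knockdown libraries left of the controls within each pair; a value of 0 means equal levels per length. Ratios run from 6.05 for RPL36AL to below -12 for RPL10L, which rests on 1 to 4 fragments per library, and within a pair the libraries lie close together beside the distance between pairs.

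The comparison of the groups asks which transcripts depend on NSD2. NSD2 itself stood at 919 and 1156 CPM in the libraries labelled knockdown and at 1121 and 1471 CPM in the controls, so the groups overlapped. On the log2 scale the difference was -0.32 (95% interval -0.66 to 0.02), with an adjusted p of 0.244 in edgeR's quasi-likelihood test with Benjamini-Hochberg adjustment. It passed with no filter (adjusted p = 0.0173), without control library 1 (0.0196) or without knockdown library 2 (0.0268). Once GC content and length were modelled, the log2 fold change of NSD2 was 0.03, beside a median of 0.062 over all genes tested. All differences below are therefore between libraries as labelled. Total fragments were 48334736 and 55059566 in the knockdown libraries and 50417758 and 46728940 in the controls. All 10 plasma cell markers were detected. Their summed levels were 8530 and 9402 CPM in the knockdown libraries and 9291 and 9335 CPM in the controls. SLAMF7 and CD38 were called lower and 0 higher, beside 4.19% and 1.74% of all genes tested. SLAMF7 had 110 and 129 CPM in the knockdown libraries and 237 and 272 CPM in the controls. CD38 was near the floor, at 0.29 and 0.037 CPM in the knockdown libraries and 1.54 and 0.70 CPM in the controls. The 7 markers of epithelial and kidney lines summed to 35.7 and 33.8 CPM in the knockdown libraries and 68.6 and 56.5 CPM in the controls. All 4 of them that could be tested were called lower, beside 4.19% of all genes tested. The part of these markers in the results was not tested.

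No ribosomal protein gene passed the test between the groups. Of the 77 core genes 0 were called higher and 0 lower by edgeR's quasi-likelihood test at an adjusted p under 0.05, where 5.93% of all 17172 genes tested were called, 1.74% higher and 4.19% lower. DESeq2 called 0 as well, where it called 6.36% of all genes, and limma-voom called 0, where it called 5.86%. At an unadjusted p under 0.05 the core count was 3, all higher in the knockdown libraries, beside 22.5% of all genes, or 9.46% counting higher values alone. Among the 7 paralogs tested 0 were called, and 1 had an unadjusted p under 0.05. In bulk RNA fewer cells of a kind and less RNA per cell cannot be told apart, here as in the values that follow.

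The measured differences were small, and most were above 0. The median log2 fold change of the core genes was 0.10, with quartiles of 0.05 and 0.15, beside -0.0016 over all genes tested. It lay above 0 in 70 of 77 core genes (90.9%), beside 49.7% of all genes. Under RLE, upper-quartile and library-size scaling the core median was 0.10, 0.09 and 0.08. The 95% interval stayed inside 1.5-fold in either direction for 76 of the 77 core genes, beside 9272 of the 17172 genes tested. Precision was higher than for most genes, with a median SE of 0.10 on the log2 scale beside 0.14 over all genes. By subunit, the median was 0.08 over the 46 genes of the 60S subunit and 0.11 over the 31 genes of the 40S subunit.

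The core genes with the highest fold changes came from both subunits. RPS27A (chromosome 2, 55459039 to 55462989, GRCh37) encodes ubiquitin fused to a 40S protein. It had 1016 and 1138 CPM in the knockdown libraries and 886 and 883 CPM in the controls. Both knockdown libraries were above both controls. The estimate was 0.28 on the log2 scale (95% interval 0.06 to 0.51, SE 0.10; edgeR adjusted p = 0.137). RPS26, which lies at the messenger RNA exit of the 40S subunit (chromosome 12, 56435637 to 56438116), had 153 and 155 CPM in the knockdown libraries and 134 and 129 CPM in the controls, again without overlap. Its log2 fold change was 0.23 (SE 0.09; edgeR adjusted p = 0.168). RPL38, a small 60S protein known in mouse for its part in the translation of Hox messages (chromosome 17, 72199721 to 72206794), had 243 and 253 CPM in the knockdown libraries and 223 and 205 CPM in the controls. Its log2 fold change was 0.21 (SE 0.10; edgeR adjusted p = 0.222), with no overlap between the groups. RPL36A, one of the genes of uncertain level above, was also among the 5 highest, with a log2 fold change of 0.22 (SE 0.15) and overlapping groups; without knockdown library 2 it was 0.0032 and without knockdown library 1 0.40.

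The lowest core gene was RPL4, whose protein lines the exit tunnel, with 1745 and 1976 CPM in the knockdown libraries and 1881 and 1928 CPM in the controls. Its log2 fold change was -0.03 (SE 0.11; edgeR adjusted p = 0.887). RPL12, at the base of the P stalk, stood at 453 and 473 CPM in the knockdown libraries and 484 and 464 CPM in the controls, also -0.03. RPS27 stood at 786 and 925 CPM in the knockdown libraries and 881 and 846 CPM in the controls (-0.01), and RPL28, a 60S protein, at 581 and 643 CPM in the knockdown libraries and 676 and 558 CPM in the controls (-0.01). RPS15A, of the 40S subunit, stood at 205 and 222 CPM in the knockdown libraries and 220 and 208 CPM in the controls (-0.0034). The groups overlapped in all 5, and the sign of each turned with terms for GC content and length. With those terms the median over all genes tested also moved, from -0.0016 to 0.062. RPL4, RPL12 and RPS27 stayed below that median, and RPL28 and RPS15A lay above it.

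The P stalk proteins, which recruit the GTPase factors of translation and were picked for mention after their values were seen, gave log2 fold changes of 0.14 for RPLP0, 0.18 for RPLP1 and 0.14 for RPLP2. RPLP0 stood at 1773 and 1907 CPM in the knockdown libraries and 1717 and 1620 CPM in the controls, and RPLP1 at 1407 and 1504 CPM in the knockdown libraries and 1357 and 1217 CPM in the controls, both without overlap. RPLP2 overlapped, at 446 and 488 CPM in the knockdown libraries and 456 and 394 CPM in the controls. FAU, outside the symbol rule, had a log2 fold change of 0.05 (edgeR adjusted p = 0.811).

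**Figure D3:**
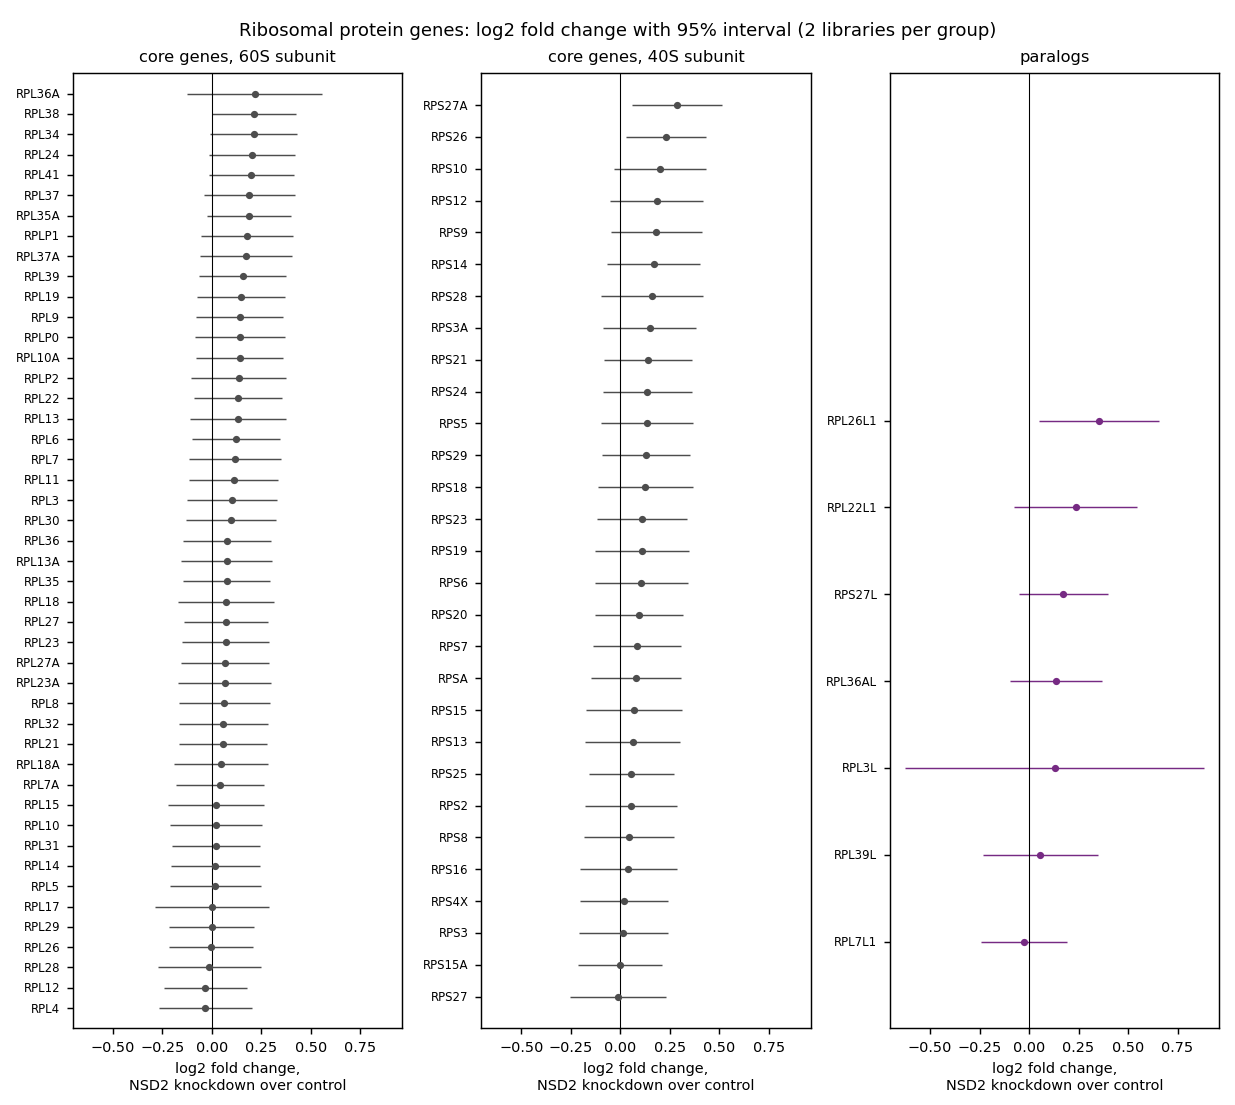
Log2 fold change of libraries labelled NSD2 knockdown over control for each tested member, with its 95% interval from the edgeR model, in 3 panels for core 60S genes, core 40S genes and paralogs. Estimates of core genes run from -0.03 to 0.28 and most lie above 0, and the interval leaves 0 for RPS27A, RPS26, RPL38 and RPL26L1 before adjustment. Of the 77 core genes 2 are not drawn.

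The paralogs ran from -0.03 for RPL7L1 to 0.35 for RPL26L1 in log2 fold change, with a median of 0.14 over the 7 tested. RPL26L1 (chromosome 5, 172385732 to 172396774, GRCh37) had 18.8 and 21.9 CPM in the knockdown libraries and 17.4 and 14.4 CPM in the controls. Its groups did not overlap, and its log2 fold change had an SE of 0.13 and an edgeR adjusted p of 0.161. Without control library 1 its adjusted p was 0.0205, where 11.3% of all genes tested were called and 3.82% were called higher. Its log2 fold change was 0.22 without control library 2 (edgeR adjusted p = 0.438) and 0.23 without knockdown library 2 (0.713). RPL22L1 stood at 8.56 and 9.51 CPM in the knockdown libraries and 7.68 in each control (0.24, SE 0.14, edgeR adjusted p = 0.356; 0.15 without knockdown library 2). RPS27L stood at 29.7 and 31.1 CPM in the knockdown libraries and 27.4 and 26.5 CPM in the controls (0.17, SE 0.10, edgeR adjusted p = 0.348). These 3 of the 7 (42.9%) were the paralogs with both knockdown libraries above both controls, beside 27.0% of all genes. The counterparts RPL22 and RPL26 differed by 0.13 and -0.0030.

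Library by library, the median core gene was highest in knockdown library 2 and lowest in control library 2. Every one of the 77 core genes was higher in knockdown library 2 than in knockdown library 1, by a median of 0.14 log2 units, which is above the median fold change between the groups. All 77 were also higher in knockdown library 2 than in control library 2, by a median of 0.21. Between knockdown library 1 and control library 1 only 33 of 77 were higher, with a median of -0.0093. Relative to the mean of each gene over the 4 libraries, the median core gene deviated by -0.03 in knockdown library 1 and by 0.12 in knockdown library 2, against -0.01 and -0.08 in control libraries 1 and 2. The pooled SD within groups of these medians was 0.08.

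In 30 of the 77 core genes both knockdown libraries were above both controls (39.0%), beside 27.0% of all genes tested, and in 0 were both below, beside 26.2%. With upper-quartile scaling the counts were 23 above and 0 below. RLE scaling gave 29 above and 0 below, and library-size scaling gave 29 above and 1 below. Leaving out knockdown library 2 brought the core median to 0.01, and leaving out knockdown library 1 brought it to 0.19. Without control library 2 it was 0.05. No core gene was called in any of these fits.

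As a share of all fragments, core genes took 5.93% and 6.41% in the knockdown libraries and 5.998% and 5.73% in the controls. The means were 6.17% ± 0.338 and 5.86% ± 0.192 (SD, n = 2 each), and a two-sided exact permutation test gave p = 0.667. The 60S genes took 3.65% and 3.90% in the knockdown libraries and 3.69% and 3.51% in the controls, and the 40S genes 2.28% and 2.52% in the knockdown libraries and 2.31% and 2.22% in the controls. The paralogs together took 0.0413% and 0.0447% in the knockdown libraries and 0.0418% and 0.0415% in the controls. In all of these the groups overlapped and knockdown library 2 was highest. The share of the mitochondrial genome was also highest in knockdown library 2. It stood at 5.82% and 6.81% in the knockdown libraries and 5.89% and 5.86% in the controls. Its part in the result was not tested. Outside the mitochondrial genome core genes took 6.30% and 6.88% in the knockdown libraries and 6.37% and 6.08% in the controls.

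**Figure D4:**
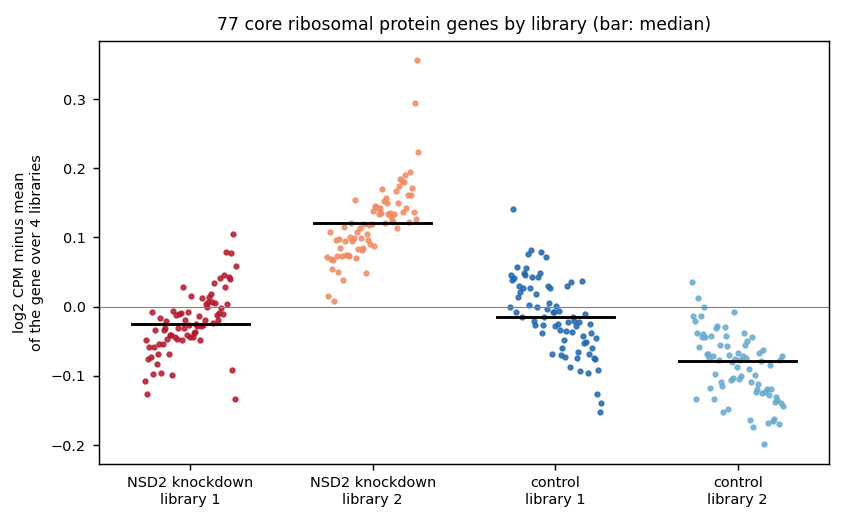
Deviation of each of the 77 core genes in each library from its own mean over the 4 libraries, in log2 CPM, with 1 point per gene and a bar at the median. All points of knockdown library 2 lie above 0 around a median of 0.12, while the medians of knockdown library 1 and the 2 control libraries lie below 0.

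Across the 77 core genes the Pearson correlation of the log2 fold change was -0.13 with GC content and -0.10 with log2 length, given as descriptions of genes that share the same 4 libraries. Core genes with a TOP tract at the annotated start had a median log2 fold change of 0.11 (n = 46) and those without one 0.09 (n = 16). Their median levels were 210 and 195 CPM per kb.

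Other genes of the ribosome pathway were taken as lists. Their calls by edgeR's quasi-likelihood test stand beside 1.74% of all genes called higher and 4.19% called lower. Of the 41 ribosome biogenesis factors, which process ribosomal RNA and assemble the subunits, 0 were called, with a median log2 fold change of 0.11. It lay above 0 in 35 of them. In 25 (61.0%) both knockdown libraries were above both controls, beside 27.0% of all genes, and in 2 both were below, beside 26.2%. Between the libraries numbered 1, 39 of the 41 were higher in the knockdown, and between those numbered 2, 30 were. Of the 21 translation factors and other TOP genes tested 0 were called, with a median of 0.05. Of the 11 chaperones and importers of ribosomal proteins 0 were called, with a median of 0.07. Among the 15 genes of the RNA polymerase I machinery, which transcribes ribosomal RNA, 1 fell: TWISTNB, a subunit gene, averaged 44.0 ± 0.733 CPM in the knockdown libraries and 58.2 ± 2.17 CPM in the controls (SD, n = 2 each). Its log2 fold change was -0.40 (edgeR adjusted p = 0.0313), and the call was lost without either knockdown library (0.0881 and 0.169).

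The ribosomal proteins of the mitochondrion, which form a separate particle, gave a median log2 fold change of 0.15 over the 75 of 76 genes tested. It lay above 0 in 71 of them, and in 50 (66.7%) both knockdown libraries were above both controls, beside 27.0% of all genes. Of the 75 only MRPL23 was called, beside 1.74% of all genes called higher. It stood at 38.2 and 41.2 CPM in the knockdown libraries and 30.7 and 29.2 CPM in the controls. Its log2 fold change was 0.41 (edgeR adjusted p = 0.0428). That call was lost with upper-quartile scaling (0.0517), library-size scaling (0.0566) or a filter of 1 CPM (0.0518), and without control library 2 (0.0711) or knockdown library 2 (0.316). As a share of fragments these genes took 0.413% and 0.417% in the knockdown libraries and 0.392% and 0.363% in the controls. Unlike for the cytosolic core genes the groups did not overlap, and the exact permutation p was 0.333, the smallest possible. The difference between the cytosolic and mitochondrial lists was not tested.

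The p53 target genes were listed because free ribosomal proteins such as RPL5 and RPL11 are known to bind MDM2 and stabilise p53. Of these targets 21 were tested and 1 rose, beside 1.74% of all genes called higher. GADD45A, a gene of the DNA damage response, stood at 36.5 and 47.7 CPM in the knockdown libraries and 25.8 and 26.7 CPM in the controls, a log2 fold change of 0.68 (edgeR adjusted p = 0.0154). Without knockdown library 2 it was 0.47 (adjusted p = 0.0753). The median of the list was 0.03.

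**Figure D5:**
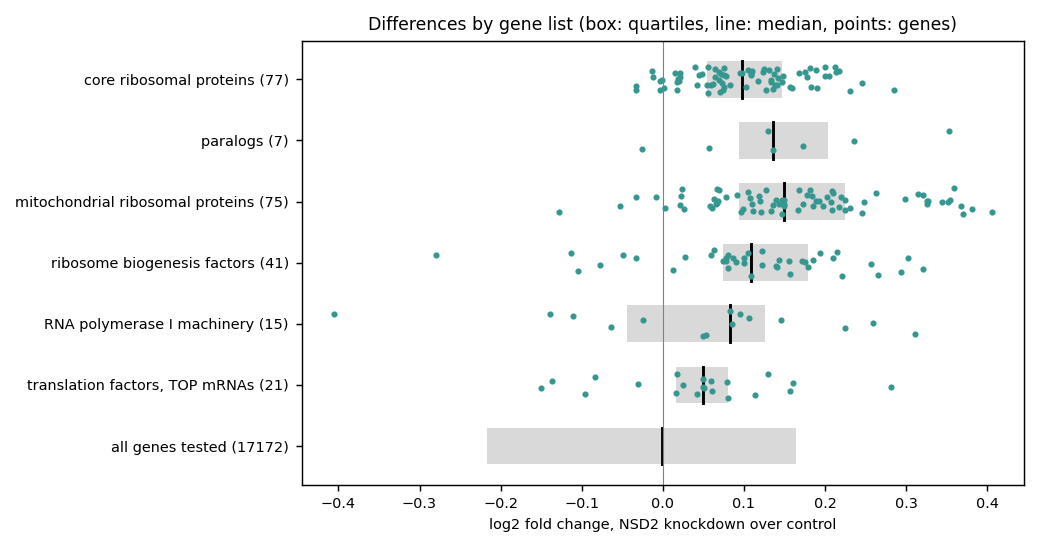
Log2 fold change of libraries labelled NSD2 knockdown over control for the tested genes of the core genes, the paralogs and 4 lists, with points for genes, a grey box between the quartiles and a line at the median; for all genes tested the box and line are drawn without points. The medians run from 0.05 for translation factors and other TOP genes to 0.15 for mitochondrial ribosomal proteins among the lists drawn, beside -0.0016 for all 17172 genes.

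The authors' deposited table of their own comparison gave a log2 fold change above 0 for 75 of the 77 core genes, with a median of 0.11. Of the 84 members with an adjusted p in the authors' deposited table, 0 were under 0.05 and 82 stood at 1.0. The lowest adjusted p of a core gene in the authors' deposited table was 0.984. Which libraries entered that model is not given in the sources used here.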

How the data were processed

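RNA was sequenced from 4 KMS11 libraries, 2 labelled NSD2 knockdown and 2 control, prepared with a TruSeq kit (input 1 µg of RNA). The deposited values are counts of fragments per Ensembl gene. Per the submitters' processing notes, the tools were Trim Galore 0.3.7, STAR 2.5.3, Picard and featureCounts of Subread 1.4.6, with GRCh37. Per the file headers, pairs were counted without regard to strand after removal of duplicates, so genes overlapping on opposite strands share fragments. Removal of duplicates can lower the counts of short, strongly expressed genes: in the deepest library the median core gene had 11.6 fragments per exonic base, beside 0.191 over all genes tested. The authors' deposited table supplied symbols, GRCh37 coordinates, exonic length, a log2 fold change and an adjusted p-value. Its 4 count columns, and 4 blank lines of the count files, were not used.

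Counts were tested with edgeR 4.0.16 (R 4.3.3): TMM scaling, the default filter on low counts, and the quasi-likelihood test with group as the only term, adjusted by Benjamini and Hochberg over 17172 genes. The biological coefficient of variation was 9.81%. Intervals at 95% rest on this model. Totals of 46728940 to 55059566 fragments put at least 1000 fragments in every library for 74 core genes. The procedure was tested on simulated data. Alternatives were other scalings and filters, DESeq2 1.42.0, limma-voom (limma 3.58.1), a replicate block, spline terms for GC content and length, pseudogene fragments added to their gene, and dropping single libraries in turn, in which case the remaining sample of that group is taken to vary as the other group does.

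The members and lists were chosen with earlier results of these data known. Genes were named by rule: NSD2, members past the threshold or failing the filter, each paralog with its counterpart, the 5 highest and 5 lowest core genes by level per kb and by log2 fold change, and up to 3 called genes each way from each list. Some genes that the rule or the lists took are not reported here. Figures were drawn with matplotlib 3.10.9.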

Additional observations from a re-analysis of the deposited data

How the results depend on the processing

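Of all genes, 1018 were called by edgeR's quasi-likelihood test, 299 higher and 719 lower. The number was 2148 with no filter, and 822 to 2024 when 1 library was left out (2024 without control library 1). Same-numbered libraries deviated together with a correlation of 0.24 across genes, but with only 2 numbers and no label for them they are not taken as pairs. With the replicate block 3319 genes (19.3%) were called, of which 1327 (7.73% of all) were higher, 1 was a core gene (RPS27A) and 1 a paralog (RPL26L1), and NSD2 was called lower (-0.32, adjusted p = 0.0197). With the block and terms for GC content and length 5073 (29.5%) were called, 3210 (18.7% of all) higher and 1863 lower, with 16 core genes and 1 paralog, all higher. Core calls were otherwise 0 in each setting. Paralog calls ranged from 0 to 1 when 1 library was left out, with RPL26L1 called without control library 1. The core median log2 fold change ranged from 0.014 without knockdown library 2 to 0.19 without knockdown library 1. The cause of these shifts was not tested.

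Some signs turned. With terms for GC content and length, without and with the block, log2 fold changes were 0.025 and 0.013 for NSD2, 0.016 and 0.016 for RPL12, 0.12 and 0.13 for RPL28, 0.058 and 0.056 for RPL4, 0.10 and 0.10 for RPL7L1, 0.11 and 0.11 for RPS15A, and 0.043 and 0.040 for RPS27. RPL17 gave -0.0100 with upper-quartile scaling, -0.017 with library-size scaling, -0.0083 with a filter of 1 CPM and -0.00084 with the block. Leaving out 1 library gave -0.041 to 0.083 for RPL10, -0.072 to 0.0042 for RPL12, -0.11 to 0.10 for RPL17, -0.081 to 0.070 for RPL26, -0.15 to 0.14 for RPL28, -0.12 to 0.26 for RPL39L, -0.030 to 0.31 for RPL3L, -0.13 to 0.059 for RPL4, -0.020 to 0.0999 for RPL7A, -0.099 to 0.043 for RPL7L1, -0.067 to 0.057 for RPS15A and -0.14 to 0.10 for RPS27. At 17 to 26 and 1 to 4 fragments per library, RPL3L and RPL10L are limited by depth.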
